A study of Mus musculus with 12 samples.

Results

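Slc39a8-IEC KO mice, which lack the metal transporter ZIP8 in intestinal epithelial cells, were compared with control mice in 10 of the 12 mucosal RNA-seq libraries from ileum and colon. The libraries were chosen by a measured value, the level of the smooth muscle actin transcript Acta2, and ileal libraries with less than 50 CPM of it were set aside. CPM are counts scaled to a library total of 1e+06, for this choice the unadjusted total. They are ileum control 1 and 2, ileum KO 2 and 3, colon control 1 to 3 and colon KO 1 to 3, so that 5 KO libraries stood against 5 control libraries. The 2 libraries left out are ileum control 3 and ileum KO 1, 1 of each genotype. They were left out after earlier results of these data were known. Acta2 was at 354 to 691 CPM of the library total in the 10 libraries and at 7.24 and 4.90 CPM in the 2 left out. Acta2 and the other smooth muscle transcripts are therefore described below without a test.

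All mice were males of 8 weeks, and the labels give the strain as C57BL/6J. The labels give the control genotype as Slc39a8-fl/fl, in which the gene is flanked by loxP sites but intact, and the KO genotype as Slc39a8-fl/fl:Villin-Cre. The floxed allele is thus labelled in both groups, and Cre in the KO group alone. The study's methods describe its control mice more widely, as floxed, Villin-Cre and wild-type animals mixed together, and the labels do not tell which of these gave which library. The Villin promoter drives Cre in epithelial cells only, whereas the RNA came from mucosa with its immune, stromal and muscle cells, so transcripts of non-epithelial cells keep an intact gene. In such bulk RNA, fewer cells of a type and less RNA per cell cannot be told apart. Ileal and colonic libraries share replicate numbers, but the labels do not say whether they came from the same mice.

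ZIP8, encoded by Slc39a8, carries manganese, zinc and iron across membranes into the cytosol. Manganese is a cofactor of arginase, of mitochondrial superoxide dismutase and of the Golgi glycosyltransferases, and zinc is buffered in the cell by metallothioneins, whose genes respond to it. Alkaline ceramidases, such as the product of Acer1, release sphingosine from ceramide.

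The 10 libraries held 17531591 to 27903083 expected counts each. Vil1, the epithelial gene whose promoter drives Cre, was at 2866 and 3059 CPM in ileum control, 2899 and 3406 in ileum KO, 581 to 801 in colon control and 667 to 743 in colon KO libraries, and its log2 fold change was 0.005 (SE 0.13). Mitochondrially encoded transcripts made up 13.1, 11.5 and 10.3% of the counts in colon control and 10.3, 10.5 and 8.13% in colon KO libraries. In ileum they made up 8.25 and 4.78% in control and 6.15 and 4.78% in KO libraries. Colon KO 3 stood apart in immunoglobulin and MHC class II transcripts, and ileum control 1 in mesothelial transcripts, and their values are given beside the results they touch.

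With both tissues in 1 fit and a term for tissue, edgeR's quasi-likelihood test called 7 of 16896 genes at a Benjamini-Hochberg adjusted p under 0.1, which is 0.0414% of the genes tested. Of these, 6 were higher (0.0355%) and 1 was lower (0.00592%) in KO libraries. The higher genes were 3 heavy chain V segments (Ighv1-55, Ighv1-82, Ighv8-12), the kappa V segment Igkv8-24, Entpd4 and Irf2bpl, and the lower gene was Slc39a8. At an unadjusted p under 0.05 there were 1743 genes, or 10.3%. DESeq2, the tool the study used, called 161 genes on the same libraries, 88 higher and 73 lower, which is 1.71% of the 9403 genes it adjusted (0.936% higher and 0.776% lower). Its split moved with the scaling, to 526 higher and 60 lower when library size was the only scaling. Only Slc39a8, Entpd4 and Irf2bpl were called by both tools, since the 4 V segments had no adjusted p in DESeq2, which left genes of their low mean count out of the adjustment. limma-voom called 2 genes, Ighv1-55 and Slc39a8. In what follows, levels are CPM on TMM-scaled library sizes, fold changes are KO over control from edgeR, and an adjusted p is edgeR's unless DESeq2 is named. All fits and permutation tests treat the 10 libraries as independent samples, and p-values measure the spread between them. Ileal and colonic libraries of a genotype that share a number were weakly correlated, and limma-voom with that pairing as a random effect gave 1341 genes at an unadjusted p under 0.05 where it had given 1682. That pairing was not fitted in edgeR or DESeq2, so their calls do not carry it.

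**Figure D1:**
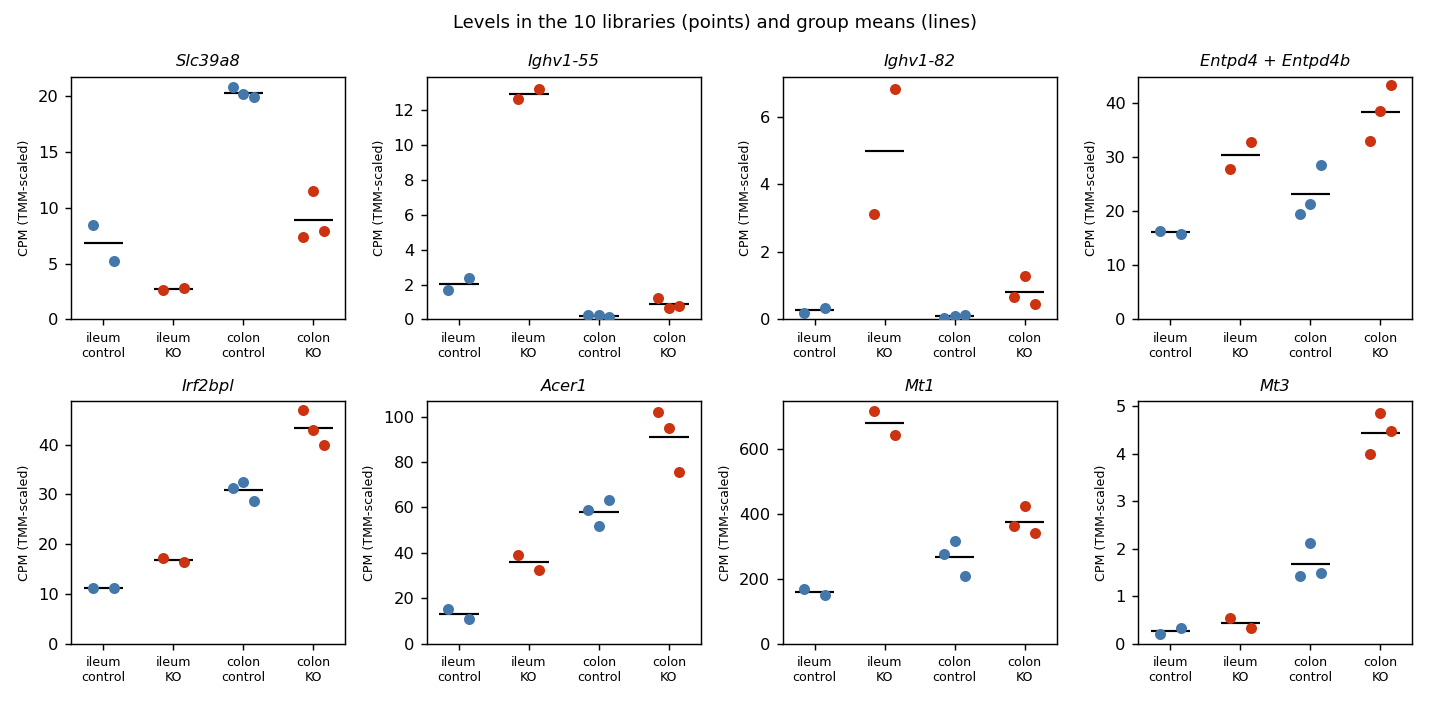
CPM (linear axis, starting at 0) of 8 genes in the 10 libraries, with ileum and colon, control in blue and KO in red. Each point is 1 library and each line a group mean. For Slc39a8 the KO points lie below the control points in both tissues, for Mt1 the gap is wide in ileum (150 to 170 against 642 to 718 CPM) and narrow in colon, and for Mt3 the ileal points overlap.

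Slc39a8 (ENSMUSG00000053897.15, chromosome 3, 135825279 to 135888572, plus strand, in GRCm38) is the targeted gene and was the check of the labels. It was at 8.45 and 5.23 CPM in ileum control and at 2.61 and 2.78 CPM in ileum KO libraries. In colon it was at 20.8, 20.1 and 19.9 CPM in control and at 7.40, 11.5 and 7.93 CPM in KO libraries. No KO library reached the lowest control library of its tissue, and KO means were 0.394 times the control mean in ileum and 0.441 times in colon. Over both tissues the log2 fold change was -1.23 (SE 0.16, adjusted p = 0.0172). A two-sided exact permutation test within tissues gave p = 0.0167, which is the smallest value its 120 arrangements allow. If ileum and colon of a mouse were kept together, fewer arrangements would exist and the smallest p would be larger, here and for the other permutation tests. The left-out control library had 6.61 CPM and the left-out KO library 4.37 CPM. Its relative Slc39a14, which encodes the manganese and zinc transporter ZIP14, had a log2 fold change of 0.01 (SE 0.14, exact permutation p = 0.9).

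Antibody V segments were the largest group among the called genes. Each antibody heavy or light chain uses 1 of many V segments, so a V transcript marks the antibody-producing cells of the mucosa, which are not the cells in which Cre is expressed. Ighv1-55 (chromosome 12, 115208095 to 115208591, minus strand) was at 1.68 and 2.39 CPM in ileum control and at 12.6 and 13.2 CPM in ileum KO libraries. In colon it was at 0.255, 0.236 and 0.140 CPM in control and at 1.23, 0.673 and 0.789 CPM in KO libraries. The groups did not overlap in either tissue, and the log2 fold change was 2.51 (SE 0.24, adjusted p = 0.00127). The colonic control values rest on 3 to 5 reads per library. Of the left-out pair, the control library had 0.213 CPM and the KO library 6.46 CPM.

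Ighv1-82 (same strand, from 115952538 to 115953005) was at 0.201 and 0.334 CPM in ileum control and at 3.12 and 6.83 CPM in ileum KO libraries. In colon its range was 0.0511 to 0.140 CPM in control and 0.457 to 1.29 CPM in KO libraries. Here too the groups lay apart in both tissues, with a log2 fold change of 3.73 (SE 0.44, adjusted p = 0.00186), but in the left-out pair the order was the opposite, with 1.24 CPM for control and 0.120 CPM for KO. Ighv8-12 was at 0 and 0.334 CPM in ileum control and at 2.65 and 3.21 CPM in ileum KO libraries, and Igkv8-24 at 0.134 and 0.111 CPM and at 5.30 and 2.31 CPM. Their colonic groups overlapped, with 0 to 1 reads of Ighv8-12 and 0 to 2 reads of Igkv8-24 in each control library. Their fitted log2 fold changes of 4.1 (adjusted p = 0.0640) and 4.03 (adjusted p = 0.0816) depend on how such low counts are smoothed.

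The sequences of Ighv1-55 and of 2 relatives are shown because the counts of a V segment depend on how well its reads can be told from those of its neighbours. They are the germline V regions of 294 bases in GENCODE M21 (GRCm38), read on the transcript strand. In Ighv1-55 (chr12:115208095-115208388) capitals mark the bases at which Ighv1-82 differs from it. In Ighv1-82 (chr12:115952538-115952831) and Ighv1-59 (chr12:115335082-115335375) capitals mark the bases that differ from Ighv1-55.
Ighv1-55: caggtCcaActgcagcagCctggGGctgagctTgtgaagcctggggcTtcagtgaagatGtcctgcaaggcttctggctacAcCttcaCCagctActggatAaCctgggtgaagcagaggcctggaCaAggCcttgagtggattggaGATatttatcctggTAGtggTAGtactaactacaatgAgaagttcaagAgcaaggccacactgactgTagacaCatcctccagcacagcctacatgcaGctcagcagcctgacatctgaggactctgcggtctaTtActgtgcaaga
Ighv1-82: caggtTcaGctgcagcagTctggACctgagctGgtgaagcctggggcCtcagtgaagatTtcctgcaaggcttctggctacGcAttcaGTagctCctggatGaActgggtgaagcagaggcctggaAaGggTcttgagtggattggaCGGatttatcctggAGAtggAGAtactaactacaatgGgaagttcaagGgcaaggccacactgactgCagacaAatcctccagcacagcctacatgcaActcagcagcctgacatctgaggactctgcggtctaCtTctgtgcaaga
Ighv1-59: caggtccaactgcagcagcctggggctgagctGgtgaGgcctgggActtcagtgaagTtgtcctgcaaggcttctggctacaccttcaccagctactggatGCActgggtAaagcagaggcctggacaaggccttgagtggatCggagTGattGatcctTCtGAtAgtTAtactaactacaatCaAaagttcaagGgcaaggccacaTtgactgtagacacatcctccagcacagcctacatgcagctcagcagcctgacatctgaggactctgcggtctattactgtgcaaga
Ighv1-82 differs from Ighv1-55 at 34 of 294 bases (88.4% identity) and Ighv1-59 at 23 (92.2%). Of the 341 distinct stretches of 75 bases in the Ighv1-55 transcript, 69 (20.2%) also occur in another V segment, in Ighv1-50, Ighv1-56, Ighv1-59, Ighv1-62 or Ighv1-72. None of the 312 stretches of Ighv1-82, the 304 of Ighv8-12 or the 291 of Igkv8-24 is shared with another V segment. Ighv1-59, chosen for display after its values were seen, was at 0.0671 and 0.668 CPM in ileum control and at 2.57 and 10.3 CPM in ileum KO libraries, and it had 0 to 4 reads in each colonic library. Rearranged antibodies also carry somatic mutations, so reads need not match these germline letters.

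The V segments were mostly higher in KO libraries as a group. Of 185 Ighv segments counted, 41 had enough counts to be tested, and 36 of these had a fold change above 0. At an unadjusted p under 0.05, 25 were higher and 0 lower, where 5.33% of all genes tested were higher and 4.99% lower. Of 160 Igkv segments 54 were tested, 49 were above 0, and 28 were higher and 0 lower at the same threshold. The median log2 fold change was 2.06 for the tested Ighv and 1.46 for the tested Igkv segments, beside 0.01 for all genes tested. Segments at low counts pass the filter through the group in which they are high, so these counts describe the tested segments and not all V segments. They also share libraries and cells, and are not independent of each other. Fold changes were above 0 in both tissues for 32 of 41 Ighv and 45 of 54 Igkv segments, as they were for 5438 of all 16896 genes. Groups were apart and higher in both tissues for 3 Ighv and 6 Igkv segments, where 2.5% of all genes were.

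Summed over all Ighv segments, ileum control libraries had 23.2 and 65.0 CPM and ileum KO libraries 104 and 219 CPM. In colon the sums were 4.50, 10.3 and 5.89 CPM in control and 9.63, 14.2 and 43.4 CPM in KO libraries, so the lowest colonic KO library was within the control range and colon KO 3 was far above the rest. The Igkv sums were 106 and 179 CPM in ileum control, 294 and 456 in ileum KO, 18.6 to 27.2 in colon control and 40.8, 47.7 and 139 CPM in colon KO libraries, without overlap in either tissue. Ighv1-55 itself took 7.23 and 3.68% of the Ighv counts in ileum control and 12.2 and 6.05% in ileum KO libraries, and 5.68, 2.29 and 2.38% in colon control against 12.8, 4.75 and 1.82% in colon KO libraries. These shares overlapped between the genotypes in both tissues. In the left-out pair the median difference was 0.08 over the same Ighv and -0.01 over the same Igkv segments.

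**Figure D2:**
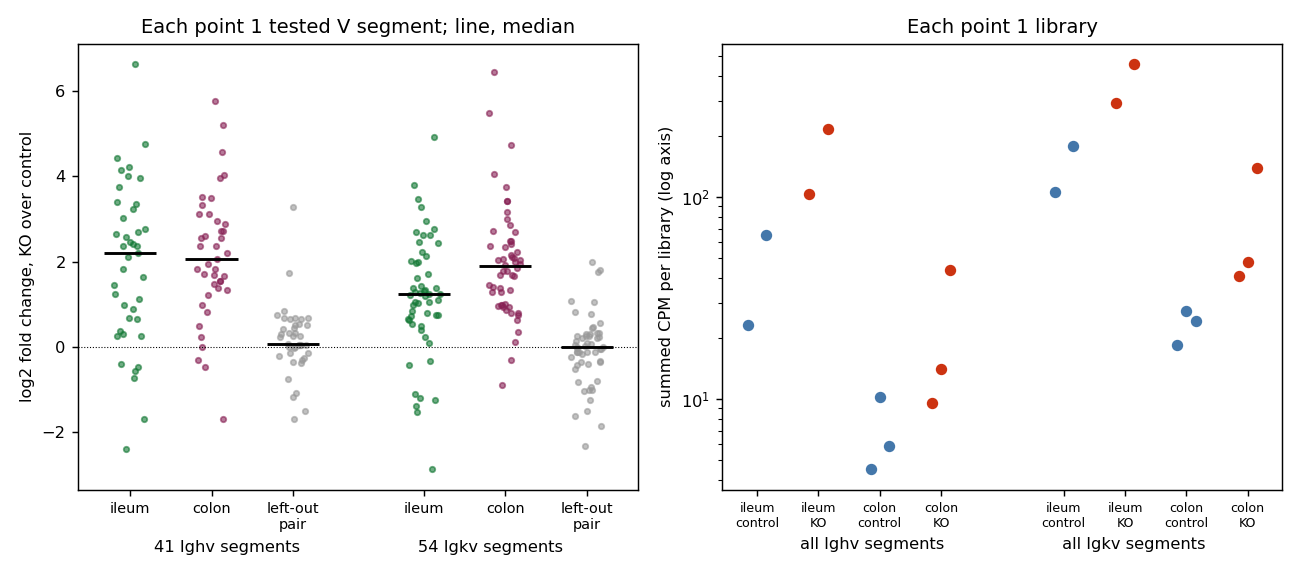
Left, log2 fold change (KO over control) of each tested Ighv and Igkv segment in ileum, in colon and, as the difference between 2 single libraries, in the left-out ileal pair, with medians as lines. Right, the CPM summed over all Ighv and all Igkv segments in each library on a log axis, control in blue and KO in red. Medians lie at 2.21 and 2.07 for Ighv and at 1.23 and 1.89 for Igkv in ileum and colon, and near 0 in the left-out pair.

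The constant regions and the other plasma cell markers did not pass the test. Igkc, the kappa constant region, was at 290 and 783 CPM in ileum control and at 753 and 1071 CPM in ileum KO libraries, which overlap, and at 68.4, 86.1 and 67.0 CPM in colon control against 123, 116 and 333 CPM in colon KO libraries (log2 fold change 1.13, SE 0.32, adjusted p = 0.296). Igha, the IgA heavy chain, had 1.05 (adjusted p = 0.416), Jchain, which joins IgA dimers, 0.38 (adjusted p = 0.515), and Ighm 0.04. Among the IgG heavy chains, Ighg2c had 1.87 (SE 1.01, adjusted p = 0.536), Ighg2b 0.94 (adjusted p = 0.559) and Ighg1 0.15. Jchain, Ighm and the IgG chains were named after their values were seen, and the difference between constant regions and V segments was not tested. Sdc1, which epithelium also expresses, was higher in every KO library of its tissue (0.25, adjusted p = 0.352). Of the 12 plasma cell genes, 11 had a fold change above 0 with a median of 0.26, and none was called by either tool. Their summed level was 1383 and 3160 CPM in ileum control, 2849 and 4155 in ileum KO, 590 to 710 in colon control and 770, 742 and 1419 CPM in colon KO libraries, the last of these in colon KO 3. The part of plasma cell number in the V segment values was not tested.

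Entpd4 and Entpd4b encode an intracellular nucleoside diphosphatase and lie near each other on chromosome 14 (plus strand, 69337174 to 69367270 and 69555424 to 69585520). Each of the 8281 stretches of 75 bases in the transcripts of one occurs in the other, and the deposited counts of both were equal in 7 of the 10 libraries, so their reads cannot be told apart. Summed, an alternative chosen after the values were seen, they were at 16.4 and 15.8 CPM in ileum control and at 27.8 and 32.9 CPM in ileum KO libraries. In colon the sum was 19.4, 21.3 and 28.6 CPM in control and 33.0, 38.6 and 43.4 CPM in KO libraries. All KO libraries were above all control libraries of their tissue, with a log2 fold change of 0.80 (SE 0.12, adjusted p = 0.0703 in edgeR and 4.12e-05 in DESeq2). Singly, Entpd4 passed (0.83, adjusted p = 0.0816) and Entpd4b did not (0.77, adjusted p = 0.114) in edgeR, and both passed in DESeq2.

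Irf2bpl, which encodes a nuclear regulator of transcription, is a gene of chromosome 12 (86880701 to 86884798, minus strand). It was at 11.3 and 11.2 CPM in ileum control and at 17.3 and 16.4 CPM in ileum KO libraries. In colon it was at 31.3, 32.4 and 28.7 CPM in control and 46.9, 43.0 and 39.9 CPM in KO libraries. The change was small and even across libraries (log2 fold change 0.53, SE 0.08, adjusted p = 0.0816 in edgeR and 3.60e-04 in DESeq2). The left-out libraries had 29.4 CPM (control) and 34.6 CPM (KO).

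Acer1, alkaline ceramidase 1 (chromosome 17, 56953490 to 56982126, minus strand), was at 15.3 and 10.9 CPM in ileum control and at 39.1 and 32.6 CPM in ileum KO libraries. In colon it was at 58.8, 51.8 and 63.1 CPM in control and at 102.1, 94.9 and 75.5 CPM in KO libraries. No KO library reached down to a control library, and the means differed 2.74-fold in ileum and 1.57-fold in colon. Its log2 fold change of 0.95 (SE 0.16) did not pass in edgeR over both tissues (adjusted p = 0.114) and passed in DESeq2 (adjusted p = 1.81e-04). The left-out pair had 18.2 and 20.3 CPM. The paralogs Acer2 (0.03, SE 0.16) and Acer3 (-0.04, SE 0.11) had overlapping groups in both tissues, with exact permutation p-values of 0.733 and 0.9.

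Of the 38 tested sphingolipid genes, edgeR called 0 and DESeq2 called 2, Acer1 and Smpd3, beside 1.71% of all genes DESeq2 adjusted. At an unadjusted p under 0.05, 3 were higher and 0 lower, where 5.33% of all genes were higher and 4.99% lower. Smpd3, a neutral sphingomyelinase that makes ceramide from sphingomyelin, was at 49.8 and 57 CPM in ileum control, 62.0 and 78.5 in ileum KO, 27.1, 35.1 and 28.7 in colon control and 49.4, 35.3 and 44.7 CPM in colon KO libraries (0.46, SE 0.12, adjusted p = 0.273 in edgeR and 0.0577 in DESeq2). The colonic groups barely parted. Degs2, a desaturase and hydroxylase of the ceramide pathway, had 0.33 (adjusted p = 0.345). Cers2, a ceramide synthase for very long chains, had 0.15 (adjusted p = 0.509). The groups of both were without overlap, as those of 2.5% of all genes were in that direction. Of the 38 genes 19 were above and 19 below 0.

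Among metal genes, Mt1 was called within ileum and not within colon. Mt1 encodes a metallothionein, a small zinc-binding protein. It was at 170 and 150 CPM in ileum control and at 718 and 642 CPM in ileum KO libraries. Colonic levels were 276, 315 and 209 CPM in control and 362, 424 and 340 CPM in KO libraries. Within ileum the log2 fold change was 2.09 (SE 0.20, adjusted p = 0.00527) and within colon 0.49 (SE 0.16, adjusted p = 0.738). The difference of the effects, colon minus ileum, was -1.60 (SE 0.25) with an adjusted p of 0.748 in edgeR and 1.14e-05 in DESeq2. The left-out ileal libraries had 78.2 CPM (control) and 73.4 CPM (KO) of Mt1, both below every other ileal library.

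The other metallothionein genes were measured as well. Mt2, named after its values were seen, was at 79.7 and 62.0 CPM in ileum control, 89.0 and 52.5 in ileum KO, 62.8 to 106.9 in colon control and 62.4 to 92.1 CPM in colon KO libraries, with overlap in both tissues (-0.18). Mt3 was low in ileum (0.201 to 0.546 CPM, 3 to 14 reads, overlapping) and in colon lay at 1.43, 2.12 and 1.5 CPM in control and 3.98, 4.86 and 4.48 CPM in KO libraries, apart (log2 fold change over both tissues 1.31, SE 0.23, adjusted p = 0.114). Mtf1, the zinc sensor that activates metallothionein genes, had 0.03, and the zinc exporter Slc30a1 0.22, both named after their values were seen.

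Of the 34 genes of manganese, zinc and iron transport, edgeR called Slc39a8 alone and DESeq2 called Slc39a8 and Mt1. At an unadjusted p under 0.05, Tfrc, the transferrin receptor (-0.44, adjusted p = 0.368), and Cybrd1, a ferric reductase (-0.75, adjusted p = 0.376), were also lower, and the median of the 34 was 0.03. The 21 tested manganese-using enzymes had 0 calls by either tool and a median of 0.07, with 1 gene higher at an unadjusted p under 0.05, Galnt12, which starts O-glycans (0.19, adjusted p = 0.423). Over all genes tested, 5.33% were higher and 4.99% lower at that threshold. Sod2, the mitochondrial superoxide dismutase, named after its values were seen, had a log2 fold change of 0.02, and Arg1, an arginase, -0.83 (adjusted p = 0.509).

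Other genes higher in KO libraries by DESeq2 belonged to epithelial cells in several cases. Ihh, Indian hedgehog of the differentiated epithelium, was at 30.9 and 34.3 CPM in ileum control, 48.3 and 48.1 in ileum KO, 43.6, 56.9 and 44.6 in colon control and 65.9, 61.2 and 68.9 CPM in colon KO libraries (0.48, DESeq2 adjusted p = 0.00334). Ephb2, a receptor of crypt cells (0.61, DESeq2 adjusted p = 0.0109), Cdx1, an intestinal transcription factor (0.52, DESeq2 adjusted p = 0.0614), and Gne, which begins sialic acid synthesis (0.43, DESeq2 adjusted p = 0.00535), also lay apart in both tissues. The goblet cell factors Atoh1 (0.39, DESeq2 adjusted p = 0.0979) and Creb3l1 (0.44, DESeq2 adjusted p = 0.0686) were called, while the secreted goblet cell products Tff3 (-0.31) and Spink4 (-0.47) were not. The glutathione transferases Gstm1 and Gstm3 rose (0.43, DESeq2 adjusted p = 0.0131, and 0.95, DESeq2 adjusted p = 0.0224), as did the claudin Cldn2, a cation pore of tight junctions (0.64, DESeq2 adjusted p = 0.0573). Gstm3 was at 3.76 and 2.84 CPM in ileum control and at 8.77 and 14.8 CPM in ileum KO libraries. Per1, a clock gene, rose by 0.48 (DESeq2 adjusted p = 0.0226). The kappa segments Igkv6-23 (2.60, DESeq2 adjusted p = 0.00296) and Igkv4-59 (2.28, DESeq2 adjusted p = 0.00692) shared 14.6% and 42.5% of their 75-base stretches with other Igkv segments. Gm47283, which maps to the Y chromosome, was higher as well (1.22, DESeq2 adjusted p = 0.00407). In edgeR none of the genes that DESeq2 called here passed, with adjusted p-values from 0.114 to 0.296.

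After Slc39a8, the lower genes with the smallest p included several secreted proteins. Slpi, a secreted protease inhibitor, was at 57.1 and 25.3 CPM in ileum control and at 26.7 and 19.3 CPM in ileum KO libraries, which overlap, and at 9.45, 12.1 and 14.6 CPM in colon control and 5.12, 4.92 and 4.15 CPM in colon KO libraries, which do not (-1.12, SE 0.22, adjusted p = 0.186 in edgeR and 7.44e-04 in DESeq2). Aldh1a2, which makes retinoic acid, was at 17.6 and 9.40 CPM in ileum control, 7.45 and 6.83 in ileum KO, 10.5, 9.29 and 13.1 in colon control and 4.32, 5.69 and 7.06 CPM in colon KO libraries, apart in both tissues (-0.93, DESeq2 adjusted p = 0.00293). C3, the central complement component, had -1.21 (DESeq2 adjusted p = 0.0979) and Igfbp6, which binds insulin-like growth factor II, -1.05 (DESeq2 adjusted p = 0.00564). Others were Eif2s2, a subunit of the translation initiation factor eIF2 (-0.58, DESeq2 adjusted p = 0.00163), Spink1, a trypsin inhibitor (-0.99, DESeq2 adjusted p = 0.00167), Casp4, the inflammatory caspase that senses lipopolysaccharide (-0.71, DESeq2 adjusted p = 0.00763), and Plac8 (-0.61, DESeq2 adjusted p = 0.0141). Spink1 was near 50 CPM in colon control (62.9, 40.6 and 45.9) and 17.1, 19.7 and 18.1 CPM in colon KO libraries, and its ileal groups overlapped. Also among the 12 lower genes with the smallest p were Med31 (-0.65), Scarna2 (-1.0) and the unnamed transcripts Gm15947 (-0.69) and Gm48883 (-2.03), and Gm26718, which had reads in the 2 ileum control libraries and 0 in the other 8. None passed in edgeR.

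Several of the lower genes were low in the left-out libraries, as the mesothelial markers were. Those libraries were chosen for low Acta2, so low levels there do not tell mesothelium from muscle or other non-epithelial cells. Igkv6-23 and Mt1, higher in KO libraries, were low there too, with log2 ratios to the other ileal libraries of -5.77 and -2.47. In the left-out pair Slpi was at 0.384 and 1.02 CPM, Aldh1a2 at 0.725 and 0.718, C3 at 8.92 and 11.7 and Igfbp6 at 0.853 and 2.21 CPM. Of the 73 genes lower by DESeq2, 12 (16.4%) stood in the left-out libraries at under 0.25 times their level in the other ileal libraries, against 4 of the 88 higher genes (4.55%) and 3.07% of all genes tested. Msln, Upk3b, Wt1 and Lrrn4, which mark the mesothelium on the outer face of the gut, had log2 fold changes of -1.20, -1.15, -1.19 and -1.0, with adjusted p-values of 0.296 to 0.411. Summed, they were at 126.7 and 32.4 CPM in ileum control, 52.6 and 34.1 in ileum KO, 43.7, 49.8 and 87.2 in colon control and 15.4, 23.2 and 32.7 CPM in colon KO libraries, and at 1.49 and 1.68 CPM in the left-out pair. Ileum control 1 was thus the highest of the 10, the ileal groups overlapped, and the colonic groups did not. The sum of these 4 genes was formed after their values were seen. Over the whole list of 12 mesothelial and fat genes, 10 were below 0 (Krt19, which epithelium also expresses, was at 0.38), and 0 were called by either tool. At an unadjusted p under 0.05, 4 were lower and 1 higher, where 4.99% of all genes were lower and 5.33% higher. The median of the whole list was -0.44 in ileum and 0.05 in colon. The part of mesothelium in the lower genes was not tested.

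**Figure D3:**
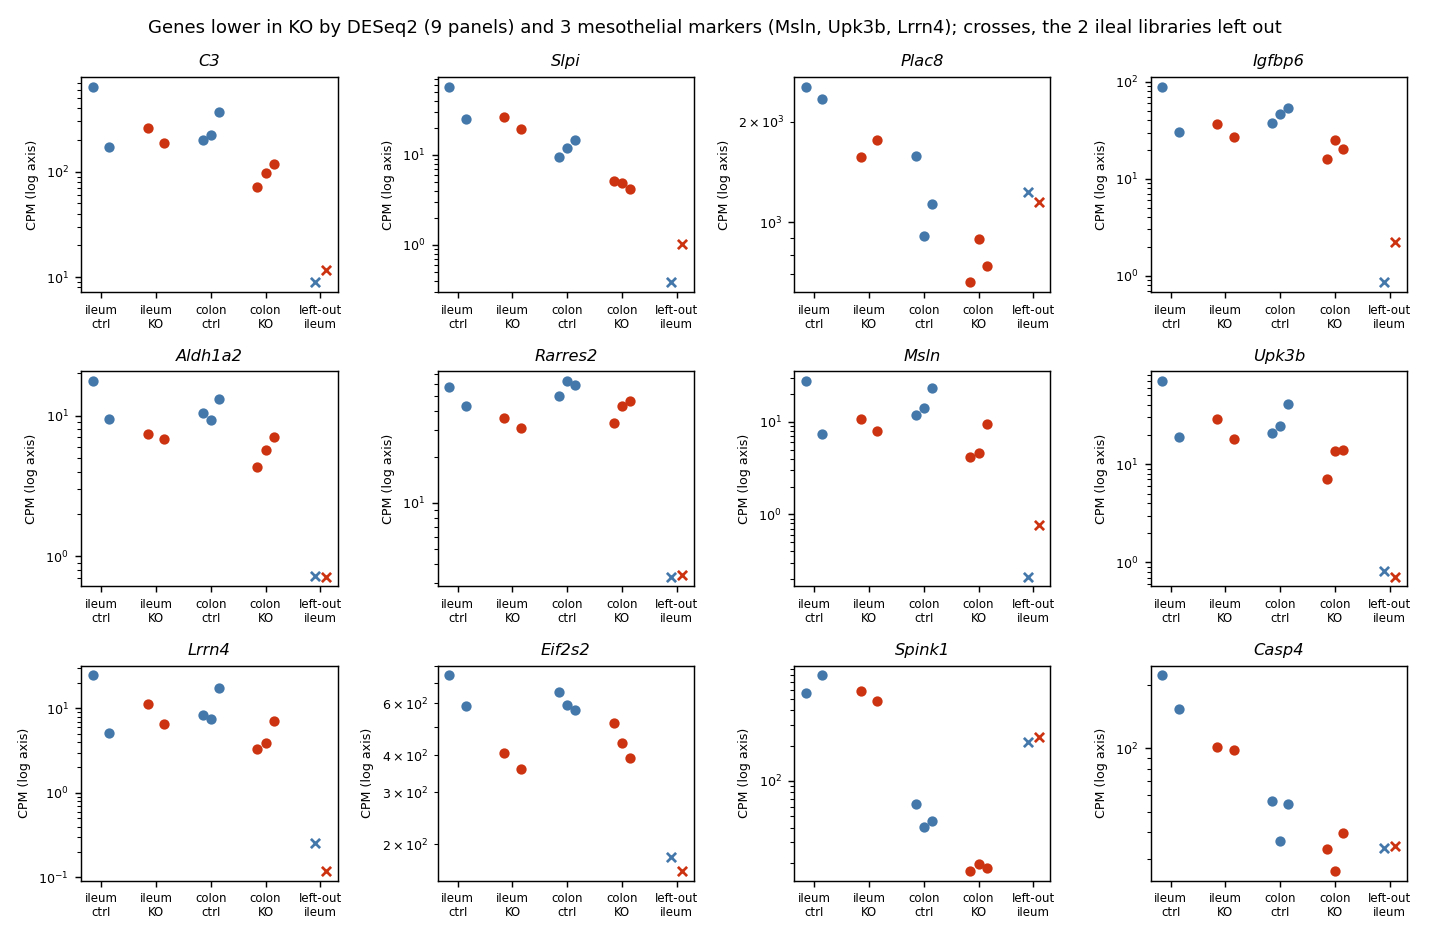
CPM (log axis, its range set for each gene) of 9 genes lower in KO libraries by DESeq2 and of the mesothelial markers Msln, Upk3b and Lrrn4. Points are the 10 libraries, control in blue and KO in red, and crosses the left-out ileal control and KO library. C3, Slpi, Igfbp6, Aldh1a2 and Rarres2 lie far lower in the left-out pair, as the mesothelial markers do. Casp4, Eif2s2, Spink1 (216 and 235 CPM) and Plac8 are also lower there, by less. Their log2 ratios to the other ileal libraries are -2.06, -1.61, -1.41 and -0.78.

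Smooth muscle genes, which the choice of libraries used, were slightly lower in KO libraries, as a description. Of the 16 genes, 15 had a fold change below 0, with a median of -0.17 over both tissues, -0.32 in ileum and -0.04 in colon. Their sum was 5027 and 4641 CPM in ileum control, 3616 and 4012 in ileum KO, 4299 to 6191 in colon control and 4290 to 5546 CPM in colon KO libraries. Fibroblast and matrix genes were below 0 for 13 of 15, with Vim, vimentin, the one called by DESeq2 (-0.57, DESeq2 adjusted p = 0.0390). Of all genes DESeq2 adjusted, 0.776% were called lower. Pancreatic genes were near the floor, with 1 of 10 tested.

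All 13 mitochondrially encoded transcripts had a fold change below 0, with a median of -0.43, 3 lower at an unadjusted p under 0.05 and 0 called by either tool. Their sum was 94830 and 51760 CPM in ileum control, 62900 and 50190 in ileum KO, 92720 to 128900 in colon control and 66970 to 91590 CPM in colon KO libraries, apart in colon and overlapping in ileum. Of 33 nuclear genes of oxidative phosphorylation, 9 were lower and 0 higher at an unadjusted p under 0.05, where 4.99% and 5.33% of all genes were. DESeq2 called 3 members of this list, Cox7a2 (-0.66), Cox6c (-0.63) and Ndufa4 (-0.55), where 0.776% of all genes it adjusted were called lower. It also called genes of the respiratory chain outside the list, Cox7b (-0.55), Cox7c (-0.49), Uqcrh (-0.55) and Ndufb11 (-0.45), named after their values were seen. The median of this list was -0.05, with 0.09 in ileum and -0.06 in colon, and turned to 0.04 with library size as the only scaling. Of 35 ribosomal protein genes 7 were lower and 0 higher at an unadjusted p under 0.05. DESeq2 called Rps7 (-0.56) and Rps14 (-0.42), where 0.776% of all genes it adjusted were called lower. Outside that list it called Rpl39 (-0.70), Rpl22l1 (-0.66), Rps15a (-0.49) and Rps27a (-0.47), also named after their values were seen. The ribosomal median of -0.10 turned to just above 0 with library size as the only scaling. Short protein-coding transcripts leaned the same way. The 363 protein-coding genes under 1000 bases of exon had a median of -0.13, with 56 lower and 6 higher at an unadjusted p under 0.05. Their median was -0.02 in ileum and -0.21 in colon, so the lean lay mostly in colon. Medians of the longer classes of protein-coding genes were between -0.001 and 0.04. Short genes of other types, such as the V segments, were not in these classes. The part of transcript length in these values was not tested.

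Of 29 genes of fatty acid oxidation and ketogenesis, 9 were higher and 1 lower at an unadjusted p under 0.05, where 5.33% of all genes were higher and 4.99% lower. Acaa2, the last enzyme of the mitochondrial spiral (0.26), Bdh1, which forms hydroxybutyrate (0.28), and Angptl4, an inhibitor of lipoprotein lipase (0.94), did not pass (adjusted p = 0.356 to 0.368). Fabp2, the fatty acid binding protein of enterocytes, was the 1 member called, by DESeq2 (-0.63, DESeq2 adjusted p = 0.0573).

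Several chaperones were higher in KO libraries by DESeq2, and none of them passed in edgeR (adjusted p = 0.273 to 0.296). Of 28 heat shock and immediate-early genes, DESeq2 called Hspa8 (0.41), Hsph1 (0.69) and Hspd1 (0.33) higher, beside 0.936% of all genes it adjusted. The colonic groups of Hsph1 overlapped. DESeq2 also called Pdia4, an isomerase of the endoplasmic reticulum (0.31), while Dusp1, an immediate-early phosphatase, was lower (-0.64, adjusted p = 0.207 in edgeR). Of 25 genes of the unfolded protein response, 22 were above 0 and 4 were higher and 0 lower at an unadjusted p under 0.05, beside 8700 of all 16896 genes above 0, 5.33% higher and 4.99% lower. Of 40 cell cycle genes, 34 were above 0 with a median of 0.15, 4 higher and 0 lower at that threshold, and 0 called by either tool. In the left-out pair only 4 of the 40 were above 0, with a median difference of -0.28.

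Inflammatory lists gave no calls in edgeR. Of 27 cytokines and chemokines, 0 were higher and 3 lower at an unadjusted p under 0.05, where 5.33% of all genes were higher and 4.99% lower. Il18, an epithelial cytokine, was called by DESeq2 (-0.64, DESeq2 adjusted p = 0.0970), and Tnf was at -1.73 (adjusted p = 0.334) on 0.142 to 3.32 CPM. Of 28 epithelial antimicrobial and inflammatory genes 21 were below 0, with a median of -0.33, beside 8196 of all 16896 genes below 0. At an unadjusted p under 0.05, 2 of the 28 were higher and 6 lower. In the left-out pair 19 of the 28 were above 0, with a median difference of 0.16. Reg3b, a secreted lectin against bacteria, was at 54420 and 65150 CPM in ileum control and 27690 and 43990 CPM in ileum KO libraries and overlapped in colon (-1.23, adjusted p = 0.368), and Saa1, an acute phase protein, had -1.15 (adjusted p = 0.296). Of 42 interferon-stimulated genes, 0 had an unadjusted p under 0.05, with a median of 0.08. MHC genes were above 0 for 18 of 20, but in colon the class II values rested on colon KO 3, with Cd74, the invariant chain, at 22.2, 42.9 and 297 CPM in colon KO and 33.2 to 45.1 CPM in colon control libraries. Of 21 tight junction genes, Cldn2 alone was called by DESeq2, and 11 were above 0.

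**Figure D4:**
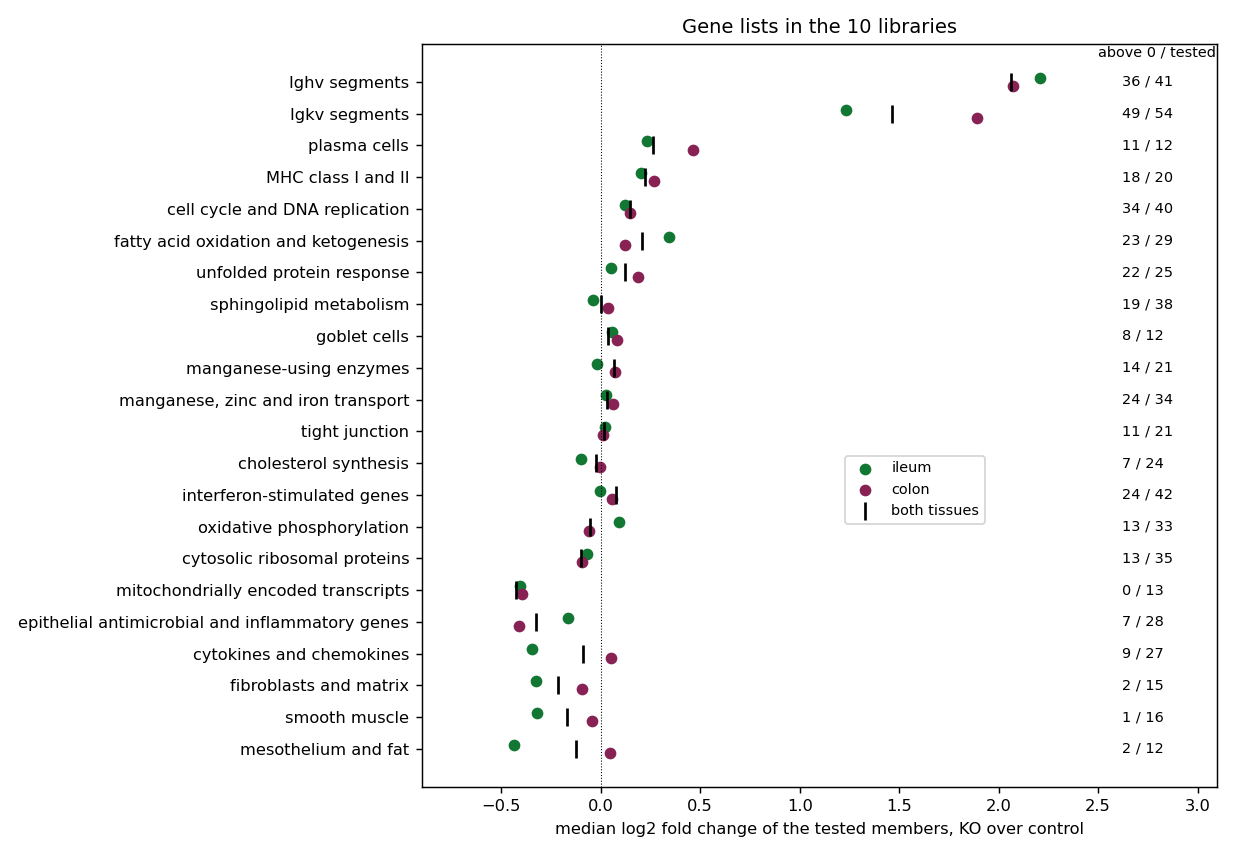
Median log2 fold change of the tested members of 22 gene lists over both tissues (vertical tick), in ileum (green) and in colon (purple), with the number of members above 0 of those tested at the right. Lists share libraries and some share genes. Ighv and Igkv segments stand at 2.06 and 1.46, and the medians of the other lists lie between -0.43 and 0.26.

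Lists of epithelial cell types had medians close to that of all genes. The 12 epithelial markers had a median of 0.07, the 14 crypt genes 0.10, the 12 goblet cell genes 0.04, the 10 Paneth cell genes -0.06, the 14 tested enteroendocrine genes 0.04 and the 9 tested tuft cell genes 0.05. The Paneth cell median turned to 0.04 with library size as the only scaling. Nts, neurotensin, was the enteroendocrine gene called by DESeq2 (-0.62, DESeq2 adjusted p = 0.0992). Among immune cells, T cell genes had a median of 0.23, macrophage and dendritic cell genes 0.12 and B cell genes -0.09 (just above 0 with library size only), each with 0 calls by either tool, while endothelial genes had 0.15 and enteric neuron and glia genes 0.07. The endothelial median was -0.14 in ileum and 0.36 in colon, and that of enteric neuron and glia genes -0.35 and 0.26.

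Within ileum, where 2 KO libraries stood against 2 control libraries and the spread was shared with colon, edgeR called 5 genes, or 0.0296%, all higher. They were Mt1 (2.09, adjusted p = 0.00527), Ighv1-55 (2.65, adjusted p = 0.00708), Igkv8-24 (4.92, adjusted p = 0.0253), Ighv1-82 (4.14, adjusted p = 0.0362) and Acer1 (1.46, SE 0.20, adjusted p = 0.0417). DESeq2 called 26 (0.149%), 19 higher (0.109%) and 7 lower (0.0402%). Within colon edgeR called 0 genes, with 1007 (5.96%) at an unadjusted p under 0.05, limma-voom called 0 and DESeq2 called 23 (0.132%), 5 higher (0.0287%) and 18 lower (0.103%). The smallest adjusted p in colon was 0.108, that of Spink1 (-1.44). For the difference of the effects between the tissues edgeR and limma-voom called 0 genes, with 409 (2.42%) at an unadjusted p under 0.05 in edgeR, and DESeq2 called 3 (0.0109%), Mt1, Aqp8 and Gm7849. The difference for Acer1 was -0.81 (SE 0.255, unadjusted p = 0.00808, adjusted p = 1 in edgeR), so it did not pass over all genes tested.

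The 2 libraries left out gave the only values that the fit had not used, 1 library of each genotype and hence no test. Of the 7 genes called by edgeR, 4 had the same direction in this pair, Slc39a8, Ighv1-55, Entpd4 and Irf2bpl. Of the 88 genes higher by DESeq2, 40 (45.5%) were higher in this pair, where 49.5% of all genes with a positive fold change were. Of the 73 lower genes 50 (68.5%) were lower, where 52.9% of all genes with a negative fold change were. With all 12 libraries edgeR called 0 genes, with 708 at an unadjusted p under 0.05 and a smallest adjusted p of 0.217, and DESeq2 called 4. These fits share their libraries. The common dispersion, the squared biological variation edgeR estimates, was 0.0348 in the 10 libraries and 0.0835 in all 12.

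Over all genes, 3.83% had groups that did not overlap in both tissues and lay in the same direction, 2.5% higher and 1.33% lower in KO libraries. The ileal groups alone did not overlap for 31.2% of genes and the colonic groups for 12.9%. Slc39a8, Ighv1-55, Ighv1-82, Entpd4, Irf2bpl and Acer1 were among the genes apart in both.

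The neighbourhoods of the targeted gene and of Acer1 were examined for calls close to them. Within 10000000 bases of Slc39a8, 119 other genes were tested and 17 (14.3%) had an unadjusted p under 0.05, where 10.3% of all genes did. None passed in edgeR, and DESeq2 called Alpk1, a sensor of bacterial sugars (-0.46). Around Acer1 on chromosome 17, 16 of 113 (14.2%) did, with Mllt1 (0.41), Vmac (0.46) and C3 called by DESeq2. Of the genes that differ between C57BL/6 substrains, Entpd4 and Entpd4b are described above. Nnt, which has 2 identifiers in the table, was at 20.5 and 13.3 CPM in ileum control and 24.7 and 21.1 CPM in ileum KO libraries when summed. In colon the sum was 11.7, 7.97 and 7.67 CPM in control and 15.7, 13.3 and 12 CPM in KO libraries, so the groups did not overlap in either tissue. Groups of 2.5% of all genes were likewise apart and higher in KO libraries, and the sum was not tested. Singly, neither identifier passed, with 0.60 (adjusted p = 0.582) and 0.40 (adjusted p = 0.859). The second of these had -0.79 in ileum and 1.28 in colon. Wdfy1 had -0.09, Ide 0.35 and Fgfbp3 0.21, none of them past the test (adjusted p = 0.824, 0.542 and 0.842). Xist was at 0.0943 to 0.306 CPM and the Y-linked Ddx3y, Eif2s3y, Kdm5d and Uty were expressed in every library, as the male label has it.

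The number of calls turned on single libraries, above all on ileum control 2. Without it edgeR called 116 genes and DESeq2 810. Without ileum KO 2 edgeR called 23, and without any other single library 3 to 7. Slc39a8, Ighv1-55 and Ighv1-82 were called by edgeR in all 10 of these fits, Entpd4 in 4, Ighv8-12 and Igkv8-24 in 3 and Irf2bpl in 1. Of the 161 genes called by DESeq2, 17 were called without each library in turn, 8 higher (Acer1, Entpd4, Entpd4b, Irf2bpl, Ihh, Gne, Igkv4-59 and Igkv6-23) and 9 lower (among them Slc39a8, Slpi, Aldh1a2, Casp4, Eif2s2, Gm15947, Igfbp6 and Spink1). The median of the tested Ighv segments stayed between 1.53 and 2.55 and that of the Igkv segments between 1.09 and 2.12.

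**Figure D5:**
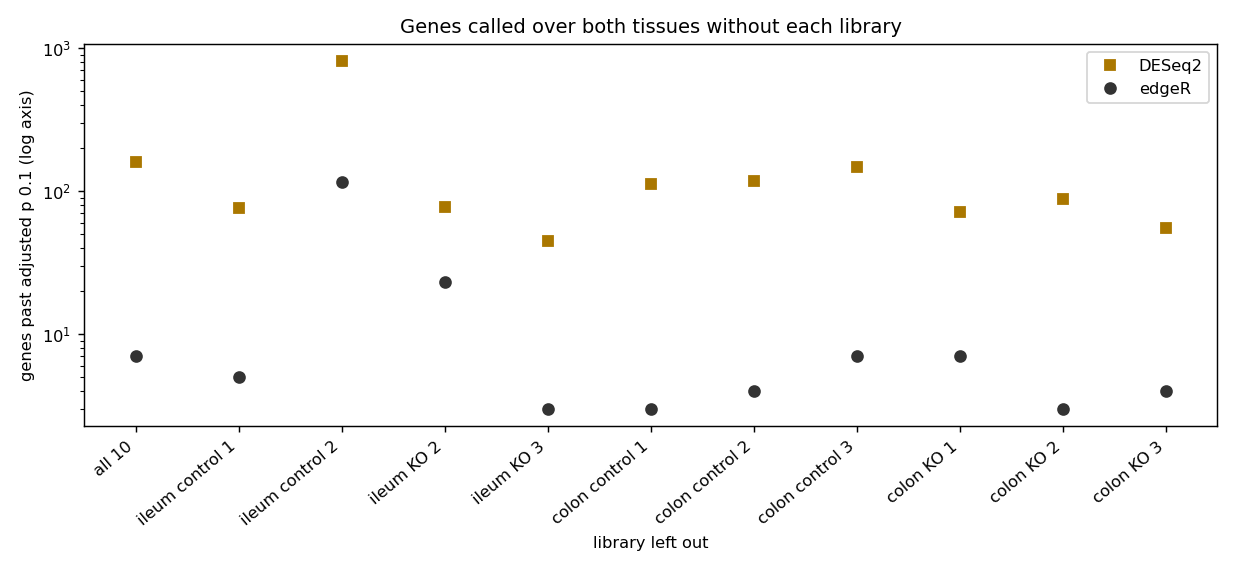
Number of genes at an adjusted p under 0.1 (log axis) over both tissues with all 10 libraries and without each library in turn, for edgeR (circles) and DESeq2 (squares). Both tools call most genes without ileum control 2, 116 and 810, and DESeq2 calls fewest without ileum KO 3, 45.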

How the data were processed

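Total RNA of ileal and colonic mucosa was reverse transcribed with oligo-dT primers, made into libraries with a NEBNext Ultra II kit, sequenced on a NovaSeq and aligned with STAR to mm10 by the authors. The deposited values are expected counts per gene, 93.7% of them whole numbers. The study's reporting summary names UMI-tools for removing duplicates and FeatureCounts for the counts file. It does not say how values that are not whole arose, since FeatureCounts by default counts whole reads. There were 53715 gene identifiers, and 92 spike-in lines with 0 counts were left out.

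Expected counts were rounded and tested with edgeR 4.0.16 in R 4.3.3 (TMM scaling, filterByExpr over the 4 groups of tissue and genotype, glmQLFit with legacy=FALSE), with Benjamini-Hochberg adjustment over all 16896 genes and the study's threshold of 0.1. DESeq2 1.42.0 and limma 3.58.1 were alternatives. Effects over both tissues used tissue as a term, and those within a tissue used 1 coefficient for each of the 4 groups. Libraries held 17531591 to 27903083 counts, so V segments at the low levels given rest on few reads. Exact permutation tests shuffled genotype within tissues on log2(CPM + 0.5). The programs were tested on simulated counts. Coordinates and sequences came from GENCODE M21 (GRCm38), and figures from matplotlib 3.10.9.

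The libraries, genes and lists were chosen with earlier results of these data known. Genes named were those of the study and their relatives, all called by edgeR, the 12 with the smallest p in each direction, the 10 with the smallest DESeq2 p in each direction, members of each list called by either tool with up to 4 others of smallest p, substrain and sex genes, and called neighbours of Slc39a8 and Acer1. Others are said to be chosen after their values were seen, which also holds for Rarres2 and Lrrn4. Some genes that the rule names are not reported here.

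Deviations from group means correlated between ileum and colon of the same genotype and replicate number at 0.115, 0.168, 0.128 and 0.220. Some pairs with other numbers were as high, such as ileum KO 2 with colon KO 1 at 0.120 and ileum control 1 with colon KO 2 at 0.169. The ileal groups of 2 also deviate as mirror images, so these values do not settle a pairing by number. limma-voom with that pairing as a random effect called 2 genes, the same number as without it. Libraries of the 2 genotypes that share a number within a tissue correlated at -0.297 to 0.112 and were not taken as paired.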

Additional observations from a re-analysis of the deposited data

Results flagged for a closer look

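The effect of genotype differed between colon and ileum for 3 genes by DESeq2's test of the difference, and for 0 genes by edgeR (409 at an unadjusted p under 0.05) and limma-voom. For Mt1 the DESeq2 adjusted p was 1.14e-05, with ileal libraries at 170 and 150 CPM in control and 718 and 642 CPM in KO, and a smaller separation in colon. For Aqp8, a water channel, the adjusted p of 3.67e-08 rested on 1 library, ileum KO 2, at 67.2 CPM beside 0 in the other 3 ileal libraries. For Gm7849 the adjusted p of 0.00182 also rested on 1 library, ileum control 1, at 452 CPM, whereas the left-out pair had 789 and 653 CPM. Aqp8 and Gm7849 were named after their values were seen.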

How the results depend on the processing

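Over both tissues the 7 calls of edgeR became 161 with DESeq2, 149 with DESeq2 on the same filtered genes, 2 with limma-voom and 2 with limma-voom and replicate number within genotype as a random effect. They became 14 with library size as the only scaling, 24 without a filter, 3 at an adjusted p of 0.05 and 0 without the tissue term. With all 12 libraries there were 0 calls in edgeR, 4 in DESeq2 and 3 with a smooth muscle score as a term. Leaving out 1 library gave 3 to 116. The other settings gave 5 to 10, among them 9 with the replicate number as a fixed block, 5 of these shared. Within ileum the 5 calls became 26 and 24 with DESeq2, 3 with limma-voom, 3 with the older edgeR fit, 9 without a filter and 2 to 93 without 1 library (93 without ileum control 2, 26 without ileum KO 3, 15 without ileum control 1 or ileum KO 2, and 2 without colon control 1 or 2). Within colon the 0 calls became 23 and 33 with DESeq2, 1 each with robust fitting, upper-quartile factors, library size only and no filter, and 0 to 1 without 1 library. The difference between tissues gave 3 and 4 with DESeq2 and 0 to 7 without 1 library (7 without ileum KO 3, 3 without ileum control 2). The 161 calls of DESeq2 became 586 with library size only, 68 at 0.05, 4 with all 12 libraries and 45 to 810 without 1 library. They became 74 with the replicate number as a fixed block (44 shared), a term common to both genotypes and not the pairing within genotype. This set of DESeq2 alternatives, like the sum of Entpd4 and Entpd4b, was chosen after seeing the data. The cause of these shifts was not tested. An arm left with 1 ileal library was assumed to vary like the other groups. Library size as the only scaling moved the median of all genes to 0.10 and turned the medians of oxidative phosphorylation, cytokine, cholesterol, retinoid, Paneth cell, B cell, ribosomal and sphingolipid genes, and the 1 tested pancreatic gene, above 0. Of the values of 232 named genes under all settings, 6255 kept their side of the threshold, 74 no longer passed and 147 newly passed. Signs changed in 56, none of them past the threshold.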
